A study of Mus musculus with 8 samples.

Results

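The 10 genes described here encode the enzymes that break down stored triglyceride in adipocytes, the proteins that switch those enzymes on or off, and the proteins that coat the lipid droplet. They were picked by symbol from a deposited table of 54532 genes, and all 10 were found: Pnpla2, Lipe, Mgll, Abhd5, G0s2, Plin1, Plin2, Plin4, Plin5 and Cidec. Values are FPKM, the fragments counted for a gene divided by its length and by the depth of the library, from RNA sequencing of brown adipose tissue of mice, a fat that oxidises lipid to produce heat. The 4 wild-type samples (WT, labelled as controls) were set against 4 samples labelled OGTBKO, in which Ogt had been knocked out specifically in brown adipocytes. Ogt encodes O-GlcNAc transferase, which modifies serines and threonines of nuclear and cytosolic proteins with a single sugar. Mice of both groups were kept at 23 °C on standard chow, were given an inducing agent that the labels spell gomaxifen after 8 weeks, and gave tissue 2 months later, with the surrounding white fat removed. The promoter that drives the deletion, the alleles, and the sex of the mice are not stated in the labels. Nor do they say that each sample came from a separate animal, so a p-value covers only the spread among these samples, which may be technical.

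In fat cells, triglyceride is broken down in steps. ATGL, the product of Pnpla2, releases the first fatty acid, hormone-sensitive lipase (Lipe) acts mainly on the resulting diglyceride, and monoglyceride lipase (Mgll) frees the last fatty acid and glycerol. ABHD5, also called CGI-58, activates ATGL, and G0S2 inhibits it. Perilipin 1 holds ABHD5 at the droplet surface until adrenergic signalling through cAMP and protein kinase A releases it, while the other perilipins and CIDEC coat droplets, tie them to mitochondria or let them fuse. In brown fat the fatty acids released in this way fuel and activate the uncoupling protein UCP1.

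Of the 10 genes, 3 differed between the groups in limma, a linear model fitted on log2(FPKM + 0.5) over all 13171 genes with a mean of at least 0.5 FPKM, at an adjusted p under 0.05. Lipe and Plin4 rose and Plin5 fell. The other 7 did not pass, Plin2 among them with the largest rise in size. The background was high, with 15.6% of all tested genes called, 8.11% as higher and 7.46% as lower. The median log2 change was 0.11 over the 10 genes and -0.002 over all tested. All 10 passed the filter on low values, by a wide margin in both groups. Within each library the reads behind 1 gene numbered between 632 and 47654, so counting error was at most 3.98% of a value, and the spread between libraries limits the comparison.

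**Figure D1:**
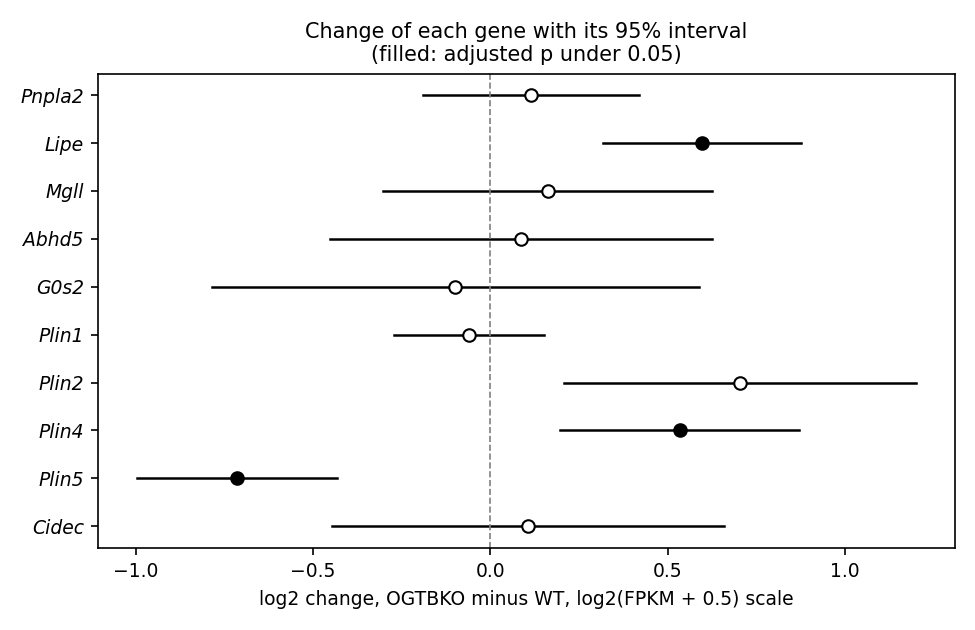
Log2 change (OGTBKO minus WT, on the log2(FPKM + 0.5) scale) of each of the 10 genes, with points for the estimate and lines for its 95% interval from limma; filled points passed the adjusted p of 0.05. Lipe and Plin4 lie to the right of 0, Plin5 to the left, and the interval of Plin2 also lies above 0, although its adjusted p of 0.0594 missed the threshold.

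Ogt itself measured 22.5 to 33.1 FPKM in the 4 WT libraries and 10.7 to 14.5 FPKM in the 4 OGTBKO libraries (limma adjusted p = 0.00511), in tissue where other cell types keep the gene. In such bulk samples, fewer cells of a type and less RNA per cell cannot be told apart. Reads in genes ranged from 13393962 to 15897920 per library. WT 3 had the highest share of mitochondrial reads, 39.4% against 25.2% to 32.2% elsewhere. The libraries numbered 1 stood apart in skeletal muscle transcripts: the summed level of 12 muscle markers was 584 FPKM in WT 1 and 1633 FPKM in OGTBKO 1, against 20.4 to 61.3 FPKM in the other 6 libraries. For results below whose call changes with these libraries, the value without them is given. The sum of 12 brown adipocyte markers was 3058 to 4563 FPKM in WT and 3128 to 3558 FPKM in OGTBKO tissue. Within it Ucp1 fell, from 2051 ± 485 to 1006 ± 79.3 FPKM (SD, n = 4 each, log2 -0.999, limma adjusted p = 0.0113), with no overlap between the groups. Cox7a1, of the same list, rose from 93.2 ± 16.1 to 205 ± 13.5 FPKM (SD, n = 4 each, log2 1.14, limma adjusted p = 0.00317), also without overlap. Of the 12 markers, 1 was called as higher and 3 as lower, a share of 33.3% against 15.6% of all genes tested. Among all genes tested, 22.5% showed no overlap, in either direction.

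The first enzyme of the pathway did not differ measurably. Pnpla2 (ENSMUSG00000025509, chromosome 7, 141455198 to 141460743, plus strand, mm10) was the most abundant of the 10 transcripts, ranked between 32 and 42 among the genes tested in each library. It measured 684, 851, 753 and 836 FPKM in WT 1 to WT 4 and 961, 774, 754 and 898 FPKM in OGTBKO 1 to OGTBKO 4. The groups overlapped, and the log2 change was 0.11 ± 0.14 (SE), with a 95% interval of -0.19 to 0.42 (limma adjusted p = 0.601). The estimate went to -0.10 after removal of each library's trend with GC content and length.

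Hormone-sensitive lipase was higher in every knockout library. Lipe (ENSMUSG00000003123, chromosome 7, 25379527 to 25398710, minus strand) measured 100, 96.4, 116 and 100.4 FPKM in WT and 180, 131, 165 and 151 FPKM in OGTBKO tissue. The lowest OGTBKO value stood above the highest WT value, and 22.5% of all genes tested likewise showed no overlap, in either direction. Its mean went from 103 ± 8.54 to 157 ± 20.8 FPKM (SD, n = 4 each), and limma put the log2 change at 0.60 ± 0.12 (adjusted p = 0.0165). The call ended without WT 2 (adjusted p = 0.0543) and without OGTBKO 3 (adjusted p = 0.0559) and held after removal of the GC and length trend (log2 0.48, adjusted p = 0.0241). It also held without the 2 muscle-rich libraries (log2 0.51, adjusted p = 0.0462). An antisense gene, 4732471J01Rik, shares 918 exonic bases with Lipe and averaged 1.46 FPKM; whether counting used strand is not stated.

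The balance of the first and second lipase was compared as a ratio within each library, a measure in which the scaling of the library cancels. There were 0.146, 0.113, 0.154 and 0.120 Lipe transcripts per Pnpla2 transcript, per unit length, in WT libraries and 0.188, 0.170, 0.218 and 0.169 in OGTBKO libraries. Every OGTBKO value was above every WT value, as for Lipe alone, so the ratio is not a separate result. The share of such ratios without overlap over all genes was not computed. As log2 values the ratios averaged -2.92 ± 0.21 (SD, n = 4) in WT libraries and -2.43 ± 0.17 (SD, n = 4) in the knockout. The exact two-sided permutation p was 0.0286, the smallest that 4 against 4 allows, or 0.0571 after Benjamini-Hochberg adjustment over the 6 ratios computed. ATGL transcripts remained several times more abundant than those of hormone-sensitive lipase in both groups.

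The last enzyme of the pathway, monoglyceride lipase, did not differ measurably and varied within groups. Mgll (ENSMUSG00000033174, chromosome 6, 88724412 to 88828360, plus strand) measured 129.5, 202, 134 and 184 FPKM in WT and 250.4, 167, 165 and 147 FPKM in OGTBKO tissue. The highest value was that of the muscle-rich OGTBKO 1, and the groups overlapped. The log2 change was 0.16 ± 0.21, with an interval of -0.30 to 0.63 (limma adjusted p = 0.629), and turned to -0.10 without both libraries numbered 1.

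**Figure D2:**
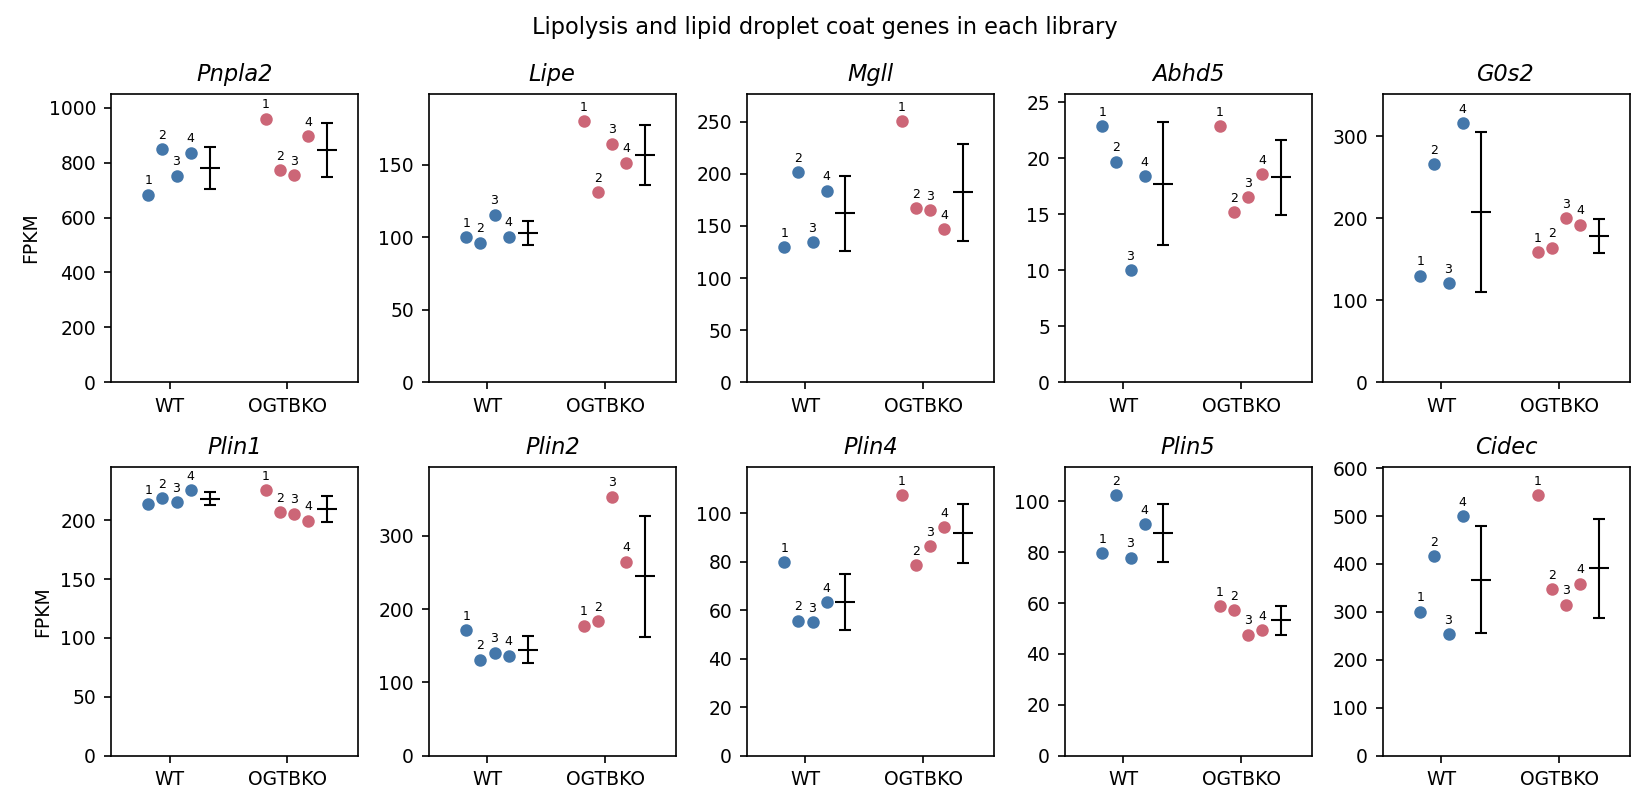
FPKM of the 10 genes in each library (vertical axes from 0; points numbered by replicate; bars to the right of each group are the mean and SD of 4 libraries). Lipe, Plin2 and Plin5 show no overlap between WT and OGTBKO, as do 22.5% of all genes tested, in either direction. G0s2 and Cidec show WT 2 and WT 4 far above WT 1 and WT 3.

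Transcripts of the pair of proteins that set ATGL activity did not differ measurably in mean, with wide intervals. Abhd5 (ENSMUSG00000032540, chromosome 9, 122351608 to 122381524, plus strand), the activator, was the least abundant of the 10 genes. Its levels were 22.8, 19.7, 10.02 and 18.4 FPKM in WT and 22.8, 15.2, 16.5 and 18.6 FPKM in OGTBKO libraries, with WT 3 the lowest of all. The log2 change was 0.09 ± 0.24, with an interval of -0.45 to 0.62 (limma adjusted p = 0.842). Without WT 3 the estimate was -0.16, still far from the threshold (adjusted p = 0.506).

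G0s2 (ENSMUSG00000009633, chromosome 1, 193272161 to 193273217, minus strand), the inhibitor, was split within the wild type. WT 1 and WT 3 measured 130 and 121 FPKM, whereas WT 2 and WT 4 measured 266 and 316 FPKM. All 4 OGTBKO libraries lay between these pairs, at 158, 164, 200.2 and 192 FPKM. The coefficient of variation was 47.0% in WT, higher than in 95.9% of genes averaging at least 10 FPKM, and 11.6% in OGTBKO tissue, higher than in 48.6% of them. The means, 208 ± 97.8 and 179 ± 20.7 FPKM, did not differ beyond that spread (log2 -0.10, interval -0.79 to 0.59, limma adjusted p = 0.857). The estimate was 0.06 without WT 2 and 0.14 without WT 4, against -0.35 after removal of the GC and length trend and -0.40 with array weights.

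Neither ratio to the inhibitor separated the groups. Per G0s2 transcript there were 0.0583 to 0.176 Abhd5 transcripts in WT and 0.0825 to 0.144 in OGTBKO libraries, a mean log2 difference of 0.19 (exact permutation p = 0.629, n = 4 each). For Pnpla2 the range was 2.65 to 6.24 in WT and 3.77 to 6.07 in OGTBKO libraries, a log2 difference of 0.21 (exact permutation p = 0.514, n = 4 each). The WT range of both ratios enclosed the OGTBKO range, with the highest WT values in WT 1 and WT 3, which had the least G0s2. Adjusted over the 6 ratios, these p-values were 0.629 and 0.617.

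**Figure D3:**
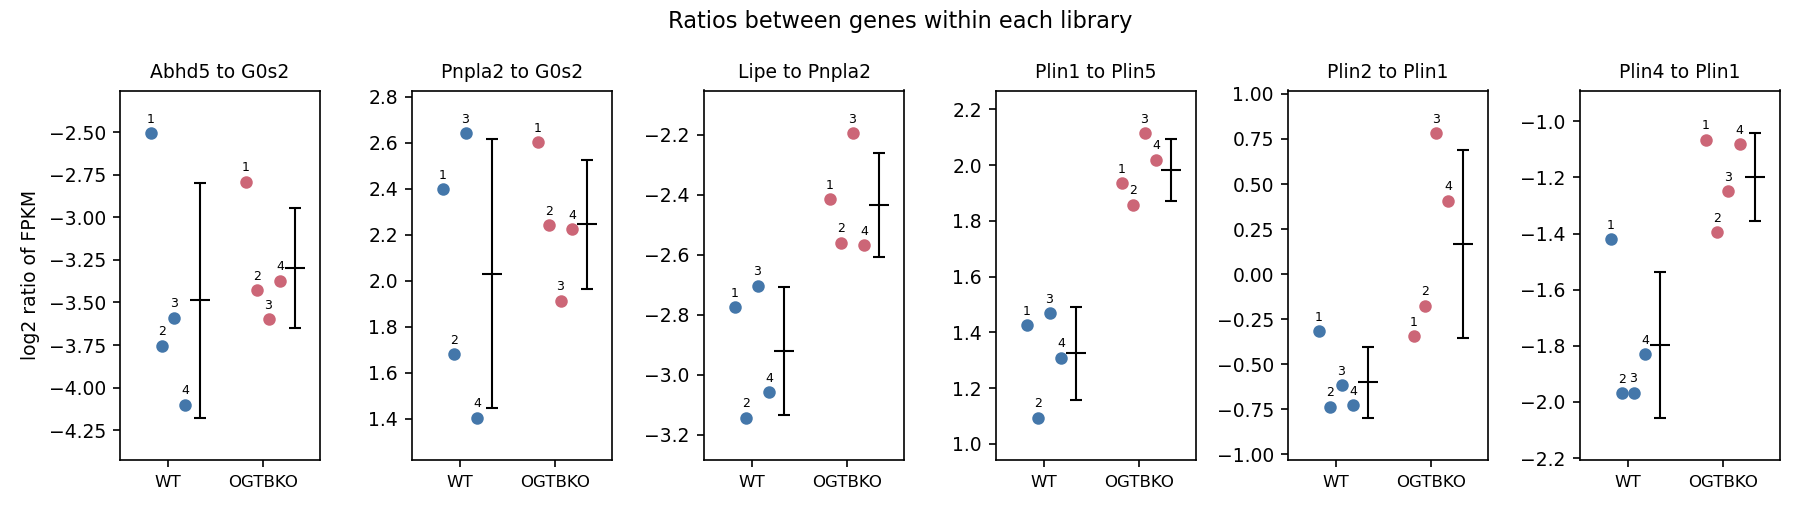
Log2 ratio of FPKM between pairs of genes in each library (points numbered by replicate; bars are the mean and SD of 4 libraries; vertical axes do not start at 0). Lipe to Pnpla2, Plin1 to Plin5 and Plin4 to Plin1 are higher in all 4 OGTBKO libraries than in any WT library, whereas the 2 ratios to G0s2 overlap.

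Among the coat proteins, perilipin 1 was the steadiest. Plin1 (ENSMUSG00000030546, chromosome 7, 79720218 to 79732903, minus strand) measured 214, 218, 215 and 226 FPKM in WT and 225, 207, 206 and 199.6 FPKM in OGTBKO tissue. The log2 change was -0.06, with an interval of -0.27 to 0.15 (limma adjusted p = 0.695), and -0.23 after removal of the GC and length trend (adjusted p = 0.109). Its WT coefficient of variation of 2.41% was lower than that of all but 0.853% of genes averaging at least 10 FPKM. It also forms the base of the ratios among coat genes given further on.

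Perilipin 5, which links droplets to mitochondria in oxidative tissues and binds ATGL and ABHD5, was lower in every knockout library. Plin5 (ENSMUSG00000011305, chromosome 17, 56111601 to 56117596, minus strand) measured 79.5, 102, 77.8 and 91.1 FPKM in WT and 58.9, 57.1, 47.5 and 49.3 FPKM in OGTBKO tissue. The highest OGTBKO value lay below the lowest WT value. Such a lack of overlap, in either direction, held for 22.5% of all genes tested. Mean levels fell from 87.7 ± 11.4 to 53.2 ± 5.65 FPKM (SD, n = 4 each), to 0.606 of the WT level (log2 -0.71 ± 0.13, limma adjusted p = 0.0100). The call held whichever single library was left out, with adjusted p between 0.0116 and 0.0370. After removal of the GC and length trend the fall was larger, at a log2 of -0.98 (adjusted p = 0.00565); with the library total as FPKM denominator it was -0.60 and missed the threshold (adjusted p = 0.0648).

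Perilipin 4, which coats small droplets in adipocytes and muscle, rose. Plin4 (ENSMUSG00000002831, chromosome 17, 56100591 to 56109803, minus strand) measured 79.8, 55.8, 55.1 and 63.4 FPKM in WT and 108, 78.6, 86.5 and 94.3 FPKM in OGTBKO tissue. In each group the highest value belonged to the muscle-rich library numbered 1, and WT 1 lay just above OGTBKO 2, so the groups overlapped. From 63.5 ± 11.5 FPKM (SD, n = 4) in WT the mean went to 91.8 ± 12.4 FPKM (SD, n = 4) in OGTBKO tissue, and limma gave a log2 change of 0.53 ± 0.15 (adjusted p = 0.0426). Without both muscle-rich libraries the rise was 0.57 on the log2 scale and still called (adjusted p = 0.0274). The call ended when any single library other than WT 1 was left out (adjusted p from 0.0538 without OGTBKO 2 to 0.116 without WT 2), and after removal of the GC and length trend (log2 0.41, adjusted p = 0.0995).

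Plin4 and Plin5 are neighbours on the same strand, with 1797 bases between their annotated ends, and they moved in opposite directions. The 250 bases before the RefSeq start of Plin4, the outermost start of Plin5 and both starts of Lipe are shown because these are the 3 genes called. Plin5 has another RefSeq start further in, whose window lies behind the outermost start and is not shown. Capitals mark matches, on either strand, to 6 motifs searched: the nuclear receptor half-site AGGTCA, a direct repeat of it with 1 base between (AGGTCANAGGTCA, bound by PPAR with RXR), the FoxO element GTAAACA, the cAMP response element TGACGTCA, the C/EBP element TTGCNNAA and the E-box CACGTG. A match to the direct repeat holds 2 half-sites. Sequences are from RefSeq on GRCm38.p6, 5′ to 3′ on the strand of the gene.
Plin5 (chr17:56117549-56117798, minus strand): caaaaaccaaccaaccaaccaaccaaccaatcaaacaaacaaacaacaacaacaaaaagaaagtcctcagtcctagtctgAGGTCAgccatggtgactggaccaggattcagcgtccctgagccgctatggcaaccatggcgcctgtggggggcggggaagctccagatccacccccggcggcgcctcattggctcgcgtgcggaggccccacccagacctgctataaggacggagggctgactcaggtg
Plin4 (chr17:56109783-56110032, minus strand): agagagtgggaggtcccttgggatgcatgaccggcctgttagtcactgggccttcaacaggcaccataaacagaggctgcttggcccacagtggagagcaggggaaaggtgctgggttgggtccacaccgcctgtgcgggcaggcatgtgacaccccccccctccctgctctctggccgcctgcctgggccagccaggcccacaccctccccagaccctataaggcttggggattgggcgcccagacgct
Lipe, distal start (chr7:25395988-25396237, minus strand): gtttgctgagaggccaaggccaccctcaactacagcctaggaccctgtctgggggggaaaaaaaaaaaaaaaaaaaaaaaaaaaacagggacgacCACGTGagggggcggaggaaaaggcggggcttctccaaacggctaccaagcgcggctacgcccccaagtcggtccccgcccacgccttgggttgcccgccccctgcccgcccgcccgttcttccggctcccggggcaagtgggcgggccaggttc
Lipe, proximal start (chr7:25390113-25390362, minus strand): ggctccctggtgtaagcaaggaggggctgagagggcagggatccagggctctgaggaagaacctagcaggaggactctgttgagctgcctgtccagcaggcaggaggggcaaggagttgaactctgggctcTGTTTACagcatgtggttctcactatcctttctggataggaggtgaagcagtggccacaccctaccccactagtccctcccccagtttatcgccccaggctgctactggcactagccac

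The Plin5 window shown held 1 nuclear receptor half-site, 170 bases before the start, a match that 14.0% of 32817 RefSeq promoter windows of this length share. In the other Plin5 window and in the Plin4 window none of the 6 motifs was found. The distal Lipe window had an E-box 155 bases before the start (6.02% of all windows have 1) and the proximal window a FoxO element 119 bases before the start (3.16% of all windows). Over the 14 windows of the 10 genes, half-sites were found in 3 (Abhd5, Plin2 and Plin5), the FoxO element and the E-box in 2 each (Lipe and Mgll for both), and the C/EBP element in 2 (Plin1 and Cidec). The direct repeat and the cAMP response element, present in 0.0335% and 1.55% of all windows, were found in 0 of the 14. These are matches of letters and not sites shown to be bound.

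Perilipin 2, the coat protein of most cell types and of newly formed droplets, was the most variable in the knockout. Plin2 (ENSMUSG00000028494, chromosome 4, 86648386 to 86670060, minus strand) measured 172, 131, 140.3 and 136 FPKM in WT and 177, 183, 353 and 265 FPKM in OGTBKO tissue. All OGTBKO libraries exceeded all WT libraries, where 22.5% of all genes tested showed no overlap in either direction. OGTBKO 1 exceeded WT 1 by little, and OGTBKO 3 was far above the rest. The means, 145 ± 18.2 and 245 ± 82.8 FPKM (SD, n = 4 each), gave a log2 difference of 0.70 ± 0.22, which did not pass (limma adjusted p = 0.0594). It passed without OGTBKO 1 (log2 0.84, adjusted p = 0.0443) and without both muscle-rich libraries (log2 0.92, adjusted p = 0.0415). The value without OGTBKO 3 was 0.51 (adjusted p = 0.120).

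Plin2 is also expressed by macrophages, whose markers varied over the same libraries. The summed level of 14 macrophage markers was 195 to 379 FPKM in WT libraries, and 270, 624, 553 and 546 FPKM in OGTBKO 1 to OGTBKO 4. OGTBKO 1, with the lowest Plin2 of its group, also had the lowest macrophage sum, while OGTBKO 2, with the highest sum, had low Plin2. Lyz2 alone made up most of the sum in each OGTBKO library, at 148, 420.5, 308 and 393 FPKM. Among these libraries Cd68, Itgam, Trem2, Gpnmb, Cd9, Lgals3 and, by little, Mmp12 were highest in OGTBKO 3, as Plin2 was. Adgre1, Csf1r, Mrc1, Cd14 and C1qb, like Lyz2, were highest in OGTBKO 2, and C1qa in OGTBKO 1. Of the 14 markers, 2 were called as higher and 0 as lower, a share of 14.3% against 15.6% of all genes tested. None of these markers was at 0 in all libraries. Their part in the level of Plin2 was not tested.

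CIDEC, which joins droplets into larger ones, followed the within-group pattern of G0s2 in the wild type. Cidec (ENSMUSG00000030278, chromosome 6, 113424634 to 113435760, minus strand) measured 300.5, 416, 253 and 500.2 FPKM in WT and 543, 347, 315 and 358 FPKM in OGTBKO tissue. WT 2 and WT 4 were again above WT 1 and WT 3, as they were for Mgll, Pnpla2 and Plin5 and, by little, for Plin1. OGTBKO 1 was the highest of all 8. The log2 change of 0.11 ± 0.25 (interval -0.45 to 0.66, limma adjusted p = 0.804) changed sign without both muscle-rich libraries, to -0.14.

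Put together, the summed FPKM of the 5 coat genes overlapped between the groups, at 742 to 1017 in WT and 873 to 1112 in OGTBKO libraries. Of the shares in it, only that of Plin5 was without overlap, and the shares were not tested. Plin5 took 8.96% to 11.1% of the coat transcripts in WT and 4.71% to 6.54% in OGTBKO libraries, with no overlap. Plin2 took 13.4% to 20.3% in WT and 15.9% to 35.1% in OGTBKO libraries, and led the coat in OGTBKO 3 in place of Cidec, which had the largest share in the other 7. Plin1 supplied 22.2% to 29.0% in WT and 20.2% to 23.7% in OGTBKO libraries. For Plin4 the share was 6.04% to 9.45% in WT and 8.58% to 9.76% in OGTBKO libraries. That of Cidec was 34.1% to 49.2% in WT and 31.2% to 48.8% in OGTBKO libraries.

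Measured against perilipin 1, Plin5 was lower and Plin4 higher, as in their own calls, so these ratios are not separate results. Neither passed after adjustment, and the share of such ratios without overlap over all genes was not computed. Plin1 transcripts outnumbered those of Plin5, per unit length, by 2.69, 2.14, 2.77 and 2.48 to 1 in WT and by 3.83, 3.62, 4.33 and 4.05 to 1 in OGTBKO libraries (exact permutation p = 0.0286, n = 4 each, the smallest possible; 0.0571 adjusted over the 6 ratios). For every Plin1 transcript there were 0.255 to 0.374 Plin4 transcripts in WT and 0.380 to 0.478 in OGTBKO libraries (exact permutation p = 0.0286, n = 4 each; 0.0571 adjusted). These 2 ratios did not overlap between the groups. The Plin2 to Plin1 ratio did, since WT 1 at 0.803 lay above OGTBKO 1 at 0.787, with 0.600 to 0.803 in WT and 0.787 to 1.72 in OGTBKO libraries (exact permutation p = 0.0571, n = 4 each; 0.0857 adjusted).

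**Figure D4:**
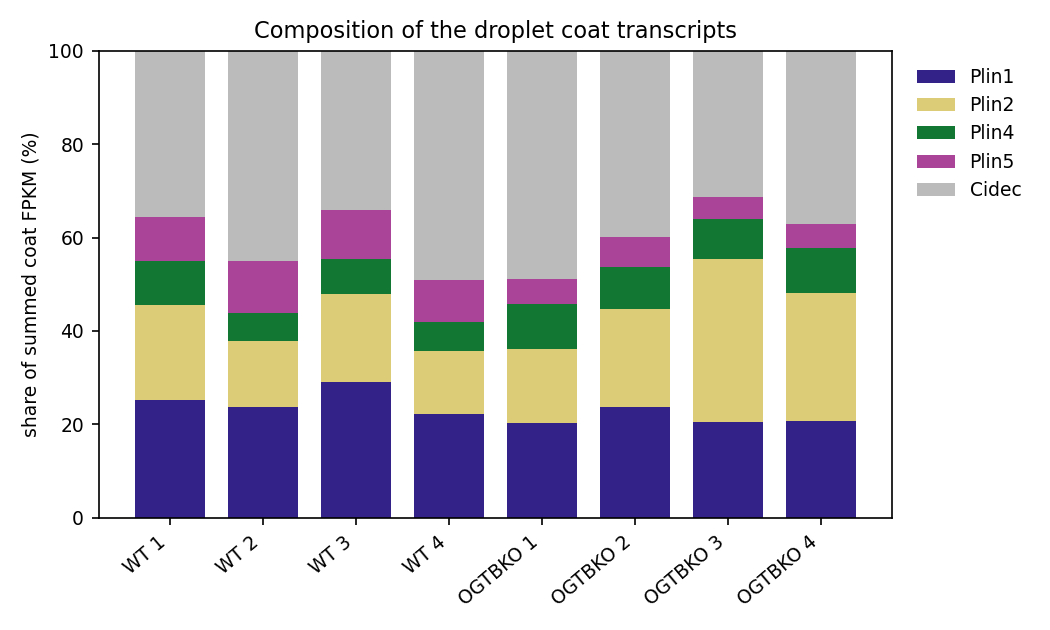
Share of the summed FPKM of Plin1, Plin2, Plin4, Plin5 and Cidec taken by each gene in the 8 libraries (stacked to 100%). The Plin5 segment is narrower in all 4 OGTBKO libraries, and the Plin2 segment is widest in OGTBKO 3, at 35.1%.

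Of the 10 genes, 9 are richer in GC than the typical transcript, which bears on the values because the libraries of the groups differed in their trend with base composition. The longest transcripts of the 10 genes ran from 45.7% (Abhd5) to 58.9% GC (Plin5), against a median of 49.4% over the genes tested. The slope of a library's log2 level on GC content, relative to the mean of all 8, was -0.0139 to -0.00720 per percentage point in WT and 0.00425 to 0.0214 in OGTBKO libraries. The values of Lipe, Plin4 and Plin5 after removal of the trend stand beside their calls above, and its part in these changes was not tested.

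Other genes of the pathway were read from lists of textbook members. Among 23 measured other droplet proteins, 1 was lower, 0 were higher and 22 did not pass, with a median log2 change of -0.08. The lower gene was Ldah, a droplet-associated hydrolase, from 10.97 ± 0.960 to 8.27 ± 0.410 FPKM (log2 -0.38, limma adjusted p = 0.0280). Rab18, a small GTPase of droplets, showed a log2 difference of -0.40 (adjusted p = 0.0517), and Aifm2, known as FSP1, of 0.31 (adjusted p = 0.0636). Mettl7a1 differed by -0.62 (adjusted p = 0.0642). The share called, 4.35%, was below the background.

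Of 15 measured other lipid hydrolases, 1 was higher and 2 were lower (median log2 0.16). The share called was 20%, against 15.6% of all genes tested. Pnpla8, a mitochondrial and peroxisomal phospholipase of the same patatin family as Pnpla2, fell from 24.0 ± 2.15 to 15.4 ± 1.72 FPKM (log2 -0.63, limma adjusted p = 0.0103). The phospholipase Ddhd1 had a log2 change of -0.51 (adjusted p = 0.0443). Daglb, a diacylglycerol lipase of low level here, rose from 0.748 ± 0.0628 to 1.30 ± 0.109 FPKM (adjusted p = 0.0233). Pnpla3, the closest relative of ATGL, measured 98.2 ± 26.2 and 154 ± 29.9 FPKM (log2 0.67, adjusted p = 0.0602), which passed without both muscle-rich libraries (log2 0.90, adjusted p = 0.0329).

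Of 30 measured hormonal controls of lipolysis, 4 were lower and 0 higher, with a median log2 change of -0.21. Without WT 3 the calls were 3 higher and 3 lower, and with array weights 3 higher and 7 lower. Adcy6, an adenylyl cyclase that makes cAMP, fell from 26.0 ± 4.21 to 14.4 ± 2.97 FPKM (log2 -0.84, limma adjusted p = 0.0138). Lower too were the phosphodiesterases that break cAMP down, Pde3b, through which insulin restrains lipolysis (64.7 ± 7.67 to 41.3 ± 7.47 FPKM, adjusted p = 0.0260), and Pde4d (log2 -0.67, adjusted p = 0.0447). The insulin receptor gene Insr was lower as well (log2 -0.57, adjusted p = 0.0274). Genes that raise cAMP and genes that lower it were thus both among the 4. At 13.3%, the share called was close to the background.

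Transcriptional regulators of lipases and coats had 2 higher, 4 lower and 16 not past the test of 22 measured, with a median log2 change of -0.12. The share called was 27.3%, against 15.6% of all genes tested. Foxo1, known to activate Pnpla2 when insulin signalling is low, fell from 14.9 ± 2.47 to 6.46 ± 1.09 FPKM (log2 -1.15 ± 0.15, limma adjusted p = 0.00391). Pnpla2 itself, as given above, did not pass. The coactivator Ppargc1a also fell (log2 -0.87, adjusted p = 0.00628), whereas Srebf1, a regulator of lipid synthesis, rose (log2 0.61, adjusted p = 0.0263). Cebpb, an adipogenic factor, rose from 66.5 ± 19.7 to 113 ± 9.66 FPKM (adjusted p = 0.0345). The calls of Foxo1 and Ppargc1a held in all 19 alternatives tried.

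For the fate of the released fatty acid and glycerol, 2 genes rose and 1 fell of 21 measured (median log2 -0.08). The share called, 14.3%, was close to the background of 15.6%. Pck1, which makes glycerol phosphate from small precursors for re-esterification, fell from 841 ± 186 to 395 ± 108 FPKM (log2 -1.10, limma adjusted p = 0.0169), a call that ended without WT 2 (adjusted p = 0.0512). Agpat2 and Lpin1, of triglyceride assembly, rose, with log2 changes of 0.63 (adjusted p = 0.0411) and 0.53 (adjusted p = 0.0496). Glycerol kinase, Gk, measured 18.4 to 90.5 FPKM in WT and 19.2 to 21.3 FPKM in OGTBKO libraries. Its log2 difference of -1.37 did not pass (adjusted p = 0.0567), and passed without WT 3 (log2 -1.87, adjusted p = 0.00277).

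Most of these calls ended in some fit with 1 library left out, while the signs of their log2 changes held. Over all genes the 2050 calls became 694 (without OGTBKO 3) to 2115 (without WT 3) in such fits. Fits with 1 library left out ended the call of Pck1 without WT 2, and that of Daglb without WT 2 or OGTBKO 2, 3 or 4. For Pde3b these were WT 2, WT 4 and OGTBKO 2 and 3, for Srebf1 WT 2, WT 4 and OGTBKO 1, 3 and 4, and for Insr and Ldah WT 2, WT 4 and OGTBKO 2, 3 and 4. Cebpb lost its call without WT 2 or any OGTBKO library. Agpat2 kept it without WT 3 or OGTBKO 2, Pde4d without WT 2 or OGTBKO 4, Ddhd1 without OGTBKO 4 and Lpin1 without WT 3, and each lost it in its other fits. The adjusted p in those fits reached 0.0784 for Daglb, 0.0756 for Pde3b, 0.0835 for Ldah, 0.0807 for Insr, 0.0793 for Srebf1, 0.0925 for Cebpb, 0.114 for Agpat2, 0.120 for Pde4d, 0.0960 for Ddhd1 and 0.135 for Lpin1. Foxo1, Ppargc1a, Pnpla8 and Adcy6 kept their calls in all 8 of these fits.

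Other settings also ended calls among the genes of these lists. Removal of the GC and length trend ended the calls of Ldah (log2 -0.15, adjusted p = 0.356), Pnpla8 (log2 -0.24, adjusted p = 0.177), Ddhd1 (log2 -0.31, adjusted p = 0.188), Pde3b (log2 -0.47, adjusted p = 0.0639), Insr (log2 -0.38, adjusted p = 0.105), Pde4d (log2 -0.57, adjusted p = 0.103), Srebf1 (log2 0.45, adjusted p = 0.0682), Cebpb (log2 0.46, adjusted p = 0.162) and Agpat2 (log2 0.38, adjusted p = 0.162). The library total as denominator ended those of Ldah (0.285), Pnpla8 (0.0501), Ddhd1 (0.109), Pde3b (0.0643), Insr (0.134), Pde4d (0.111), Cebpb (0.0721) and Pck1 (0.0509), in adjusted p. Without a filter on low values Daglb (0.0541), Ddhd1 (0.0945), Pde3b (0.0503), Insr (0.0517), Pde4d (0.0925), Cebpb (0.0733), Agpat2 (0.105) and Lpin1 (0.0917) missed the threshold. Without both muscle-rich libraries Ddhd1 (0.122), Pde4d (0.146), Srebf1 (0.0619), Agpat2 (0.135) and Lpin1 (0.0749) did.

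**Figure D5:**
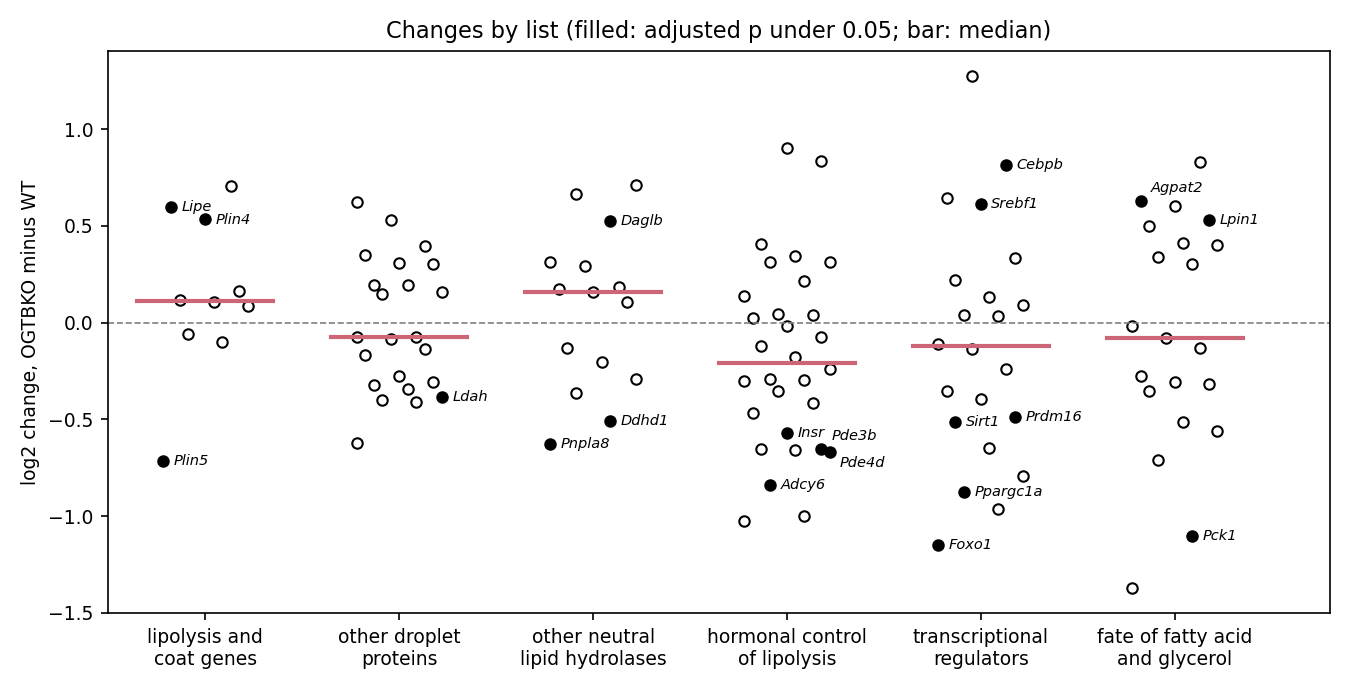
Log2 change (OGTBKO minus WT, log2(FPKM + 0.5) scale) of each measured gene in 6 lists, with filled and named points for genes at an adjusted p under 0.05 and a bar at the median of each list. The lipolysis and coat genes have 2 called above 0 and 1 below, and the called genes of hormonal control lie below 0.

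For the 3 called genes, the transcripts with the most similar profile were found over all 8 libraries, among 10082 protein-coding genes averaging at least 1 FPKM. These likenesses include the difference between the groups, share libraries and depth, and are a description only. The nearest to Plin5 were Uhrf1bp1l (Pearson r = 0.998), Dgcr2 (r = 0.985) and Alg10b (r = 0.984), and all 3 also fell. Nearest to Lipe were Tbc1d2 (r = 0.991), Puf60 (r = 0.986) and Tmem259 (r = 0.985). Plin4 was closest to Ccdc174 (r = 0.983), Chpf2 (r = 0.982) and Polr2j (r = 0.980).

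Markers of other adipocyte states stood beside these changes. Of 7 measured white adipocyte markers, 2 were higher and 0 lower, and the sum of the 9 listed was 55.0 to 134 FPKM in WT and 162 to 212 FPKM in OGTBKO libraries, with Tcf21 at 0 in all 8 libraries and Hoxc9 at or near 0. Of 12 brown adipocyte markers, 1 was higher (Cox7a1) and 3 were lower (Ucp1, Ppargc1a and Prdm16). The shares called were 28.6% of the white and 33.3% of the brown markers, against 15.6% of all genes tested. The part of these markers in the levels of Lipe, Plin4 and Plin5 was not tested.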

How the data were processed

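RNA of whole brown adipose tissue was sequenced in 8 libraries, made with a NEBNext Ultra RNA kit per the labels' protocols. Reads were processed with HISAT2 2.0.5 and featureCounts 1.5.0-p3 against mm10, per the submitters' processing notes, and the authors deposited FPKM values for 54532 genes in 1 table. The strand setting of the counting is not given in the sources used here. FPKM multiplied by gene length gave whole reads for 100% of values (tolerance 0.001), and the denominator of the FPKM was 0.790 to 1.13 times the reads in genes. Genes with a mean of at least 0.5 FPKM (13171) were tested with limma 3.58.1 (R 4.3.3) on log2(FPKM + 0.5), with a mean-variance trend and Benjamini-Hochberg adjustment over all of them, so a change of a low gene is understated. Within-library ratios were tested by exact permutation over the 70 assignments. The script was tested on simulated data, with changes set in genes drawn from those tested. It recovered 14.9% of genes changed 1.5-fold, 38.8% at 2-fold and 75.8% at 4-fold, with 3 false calls. A gene that did not pass is thus not shown to be unchanged.

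The members and lists were chosen with earlier results of these data known. Named besides the 10 genes and Ogt were up to 4 genes with the smallest p of each pathway list and the 3 protein-coding genes most like each called gene. The promoter windows came from RefSeq on GRCm38.p6, which matched all 10 genes with 14 windows. Alternatives changed the pseudocount, filter, denominator, weights, test (voom on the back-calculated reads), GC and length trend, replicate block and the libraries used. The option of leaving out both muscle-rich libraries was chosen after seeing the data. Markers of endothelial cells (1 of 10 higher) and fibroblasts (1 of 10 lower) were also read, with 15.6% of all genes tested called in either direction.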

Additional observations from a re-analysis of the deposited data

Results flagged for a closer look

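Among 74 groups of 4 libraries checked, 1 had a library far from the others, and chance flags about 1 in 20 groups. Pde4d measured 10.1 FPKM in OGTBKO 4, against 6.26 to 6.73 FPKM in the other OGTBKO libraries, a gap of 0.876 of the range of the group.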

How the results depend on the processing

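Across 19 alternatives the adjusted p from limma ran from 0.00261 to 0.0648 for Plin5, which missed the threshold only with the library total as FPKM denominator. It ran from 0.00659 to 0.0677 for Lipe (called in 16), from 0.0164 to 0.116 for Plin4 (called in 8) and from 0.0260 to 0.170 for Plin2 (called in 4), all in the same direction. Of the 10 genes, 3 were called, against 1 with the library total as denominator, 1 with the replicate block and the GC and length trend removed together, 1 to 3 with 1 library left out (1 without WT 2 or OGTBKO 3) and 4 without both muscle-rich libraries. Over all genes the 2050 calls (1068 higher, 982 lower) became 1229 without a filter, 1229 with the library total (980 higher, 249 lower), 3516 with array weights, 888 with the block, 525 with block and trend removal, and 694 (without OGTBKO 3) to 2115 with 1 library left out. The cause of these shifts was not tested.

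Other droplet proteins had 1 call, against 2 at a mean of at least 1 FPKM, 0 with the library total, the block, or block and trend removal, 10 with array weights, 3 with voom, 5 without both muscle-rich libraries, and 0 to 3 with 1 library left out. Other hydrolases had 3, against 1 with the library total, the block or trend removal, 0 with block and trend removal, 5 with array weights or voom, and 1 to 3 with 1 library left out. Hormonal controls had 4, against 1 without a filter, with the library total, with trend removal or with block and trend removal, 0 with the block, 10 with array weights (3 higher), and 1 to 6 with 1 library left out (6 without WT 3, 3 of them higher); at a mean of at least 1 FPKM, 1 of 5 was higher. Regulators had 6, against 3 without a filter, with the library total or with block and trend removal, 2 with the block, and 2 to 6 with 1 library left out. Genes of fatty acid and glycerol fate had 3, against 1 without a filter, with the block or with block and trend removal, 10 with array weights, 5 with voom, and 0 to 5 with 1 library left out.

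Signs changed for genes that were not called in any of these fits. The log2 change of Pnpla2 was -0.10 with the trend removed, with or without the block, and -0.010 without both muscle-rich libraries, and ran from 0.051 to 0.17 with 1 library left out. That of Mgll was -0.052 with array weights, -0.0011 without OGTBKO 1 (the others up to 0.27, without WT 2) and -0.10 without both muscle-rich libraries. Abhd5 gave -0.077 with array weights, -0.16 without WT 3 and -0.024 without OGTBKO 1 (the others up to 0.22, without WT 1). G0s2 gave 0.017 with the library total, 0.061 without WT 2 and 0.14 without WT 4 (with 1 library left out, down to -0.32 without WT 3), against -0.35 with the trend removed and -0.40 with array weights, and Plin1 gave 0.054 with the library total. Cidec gave -0.15 with array weights, -0.055 without WT 3, -0.062 without OGTBKO 1 (the others up to 0.27, without WT 4), -0.13 with the trend removed, with or without the block, and -0.14 without both muscle-rich libraries.

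With 1 library left out the log2 ratio differences ran from -0.015 (without WT 4) to 0.52 for Abhd5 to G0s2, 0.01 to 0.42 for Pnpla2 to G0s2, 0.41 to 0.56 for Lipe to Pnpla2, 0.58 to 0.71 for Plin1 to Plin5, 0.56 to 0.94 for Plin2 to Plin1 and 0.54 to 0.72 for Plin4 to Plin1. Without both muscle-rich libraries, where the exact permutation p cannot go below 0.1, they were 0.53 for Lipe to Pnpla2, 0.71 for Plin1 to Plin5, 1.03 for Plin2 to Plin1 and 0.68 for Plin4 to Plin1. Paired by number in the replicate block, Lipe to Pnpla2, Plin1 to Plin5 and Plin4 to Plin1 stayed at 0.49, 0.66 and 0.60. Each was at the smallest exact p of 0.125 that 4 pairs allow. Plin2 to Plin1 was 0.82 with the trend removed (exact permutation p = 0.0286). Under the block the limma adjusted p of Ldah (0.0847), Daglb (0.0842), Ddhd1 (0.0908), Adcy6 (0.0558), Pde3b (0.0607), Insr (0.0658), Pde4d (0.0597), Srebf1 (0.0677), Cebpb (0.0627), Agpat2 (0.0961) and Lpin1 (0.0693) missed the threshold. Deviations from the group means correlated at 0.220, 0.169, 0.0143 and -0.00696 between libraries of the same number. Between libraries of unlike number the correlations ran from -0.167 to 0.125, so those of the libraries numbered 1 and 2 were the highest of all. Whether the numbers mark pairs cannot be told from these values, and the main fit took the samples as unpaired.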
